A study of Homo sapiens with 9 samples.

Results

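Hairpin 1 (shSETD2#1 in the labels), 1 of 2 short hairpin RNAs against SETD2, was compared with a non-specific control shRNA (shCtrl) in HepG2 cells by the positions that the authors listed as N6-methyladenosine (m6A) sites. The list of hairpin 1 held 482 sites and the control list 3755, together 4012 different positions of the 4429 in the whole series. The members are every site of these 2 lists, matched by chromosome, position and strand. A site is a single base, given here in build hg19 with its strand. HepG2 is an established human line from a hepatocellular carcinoma. The cells of both groups were infected with lentivirus made in HEK293T cells and selected with puromycin, so they differ, as far as the labels say, in the hairpin alone. Each group has 3 labelled replicates, 6 samples in all, but 1 pooled list stands for the 3. No value below therefore has a replicate error. Every test compares 2 lists or their reads, not the conditions, and intervals are 95% exact Clopper-Pearson intervals that cover counting error only.

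SETD2 is the enzyme that trimethylates lysine 36 of histone H3 (H3K36me3) along the body of transcribed genes. m6A is laid on nascent mRNA by a complex of METTL3, the catalytic subunit, METTL14, which helps to hold the RNA, and WTAP, which anchors both. METTL14 has been reported to bind H3K36me3, which is the link between SETD2 and m6A that such a knockdown addresses. m6A on mRNA is read by YTH-domain proteins and bears on splicing, translation and decay. Mitochondrial transcripts are made inside the organelle, apart from chromatin with histones.

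The series title calls the assay miCLIP, a method that crosslinks RNA to an m6A antibody and finds the modified base by C-to-T changes in the reads beside it. The protocol in the labels names an m6A antibody and no crosslinking, so a listed site is an m6A site only as the authors name it. Each site carries a score, a whole number of at least 3 set by the authors. No header says what it counts. It is taken here as a read count, since the order of the numbered site names can be matched in full by a binomial probability computed from it. The same order gives back how many of the reads carried the change, and these numbers are called reconstructed. A single number was possible at 471 of the 482 hairpin 1 sites and 3704 of the 3755 control sites, and bounds at the others. Whether SETD2 mRNA was lower with hairpin 1 was not analysed here, the HepG2 label was not checked against marker genes, and genes, transcript regions and sequence motifs at the sites were not assigned, since no hg19 genome or annotation was used here. Read totals of the libraries were not used, so no score is scaled for depth.

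Recovery of control sites with hairpin 1 went with the depth of the site in control. Of 707 control sites with a score of 3 or 4, 7 were listed with hairpin 1, or 0.990% (interval 0.399 to 2.03). At scores of 20 to 49 the share was 4.86% (3.43 to 6.66; 36 of 741 sites), and at 100 to 199 it was 19.4% (14.9 to 24.6; 53 of 273). Among the 56 control sites with a score of 500 or more, 38 were listed with hairpin 1, or 67.9% (54.0 to 79.7), which leaves 18 very deep control sites that were not. The lowest and the highest of these intervals lie far apart, so the 225 shared sites, 5.99% of the control list, are a selection of its deep end. By chromosome the recovered share of the autosomes ran from 2.35% on chromosome 11 (interval 0.645 to 5.91; 4 of 170) to 9.33% on chromosome 16 (5.87 to 13.9; 21 of 225). These 2 intervals only just overlap, which does not show equal shares. The share was 1.06% on X (1 of 94 sites) and 23.1% on Y (3 of 13). On the mitochondrial chromosome it was 52% (interval 31.3 to 72.2, 13 of 25 sites), above the interval of every autosome. Depth was not held fixed in these shares.

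In the other direction recovery did not go with depth in this way. Of the 482 hairpin 1 sites, 257 (53.3%) were absent from control. The share found in control was 34.3% at hairpin 1 scores of 3 or 4 (interval 25.1 to 44.6; 34 of 99), 50.4% at 5 to 9 (41.4 to 59.4; 64 of 127), 46.9% at 20 to 49 (35.7 to 58.3; 38 of 81) and 39.5% at 100 to 199 (24.0 to 56.6; 15 of 38). All 8 intervals over the score range overlap each other, which does not show that the shares are equal. The lowest share was that of the shallowest sites. Of the 8 hairpin 1 sites with a score of 500 or more, 4 were absent from control.

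**Figure D1:**
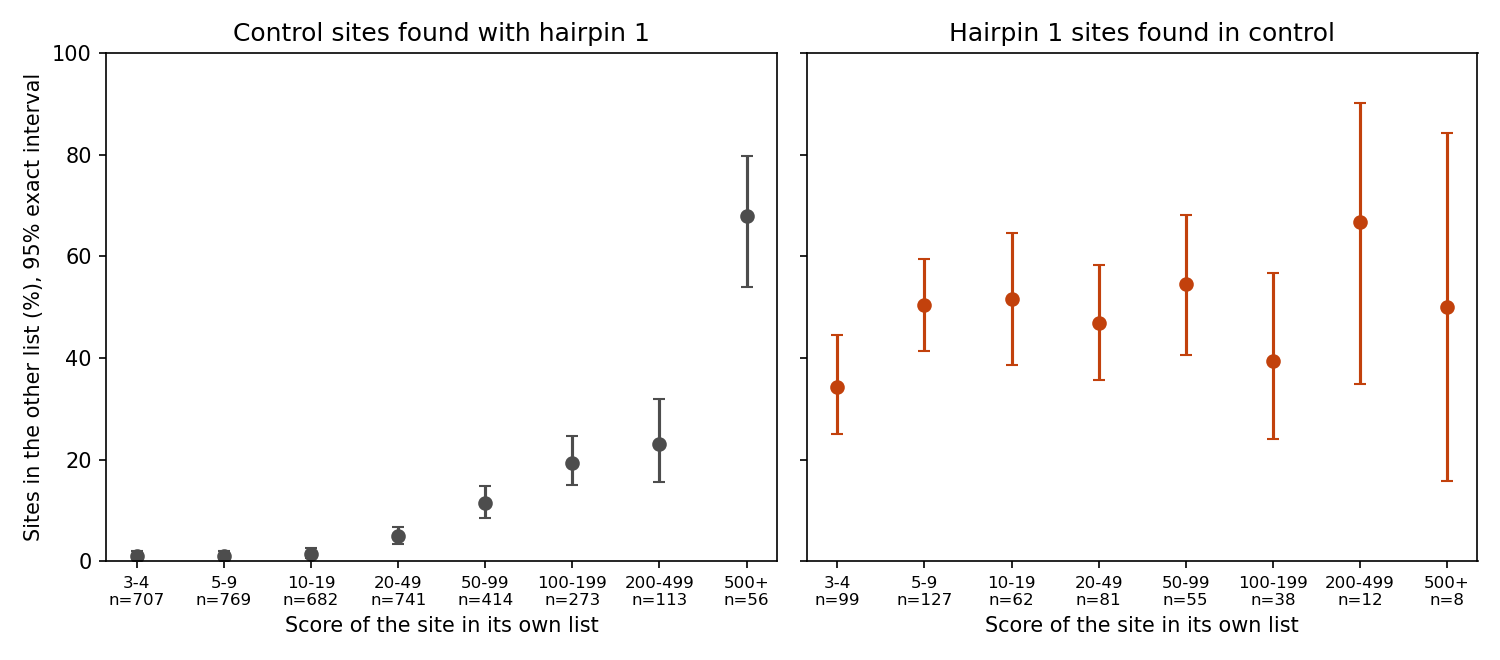
Share of sites (%) present in the other list, by the score of the site in its own list, with 95% exact intervals and the number of sites per range. Control sites (left) run from 0.990% at scores of 3 or 4 to 67.9% at 500 or more, while hairpin 1 sites (right) lie between 34.3% and 66.7% at every depth.

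At the shared sites the hairpin 1 scores were lower nearly everywhere, and by unequal amounts. The score was at least 2-fold lower with hairpin 1 at 189 of the 225 shared sites (84%) and at least 2-fold higher at 2 (0.889%). The median ratio was -2.81 on the log2 scale, or 7.01-fold lower. The 13 shared mitochondrial sites spanned 4.15-fold to 16.8-fold lower, and all 13 were past 2-fold. Of the 212 nuclear shared sites, 107 lay within that mitochondrial range, 36 were lower by more and 69 by less. At the 28 nuclear sites with a control score of 500 or more, where the minimum score of a listed site hardly limits the ratio, 18 were within the mitochondrial range, 9 below it and 1 above it. Their median was 11.1-fold lower, against 8.05-fold at the 10 mitochondrial sites with such a control score, whose range was 5.91-fold to 16.8-fold lower. Without the limit on the control score the medians were close, at 7-fold lower over the 212 nuclear and 7.09-fold over the 13 mitochondrial sites. Whether the deep nuclear and mitochondrial sites differ was not tested. Listing can still limit the ratios of deep sites, since a listed site also needs at least 1 changed read. Deep control sites that were not listed with hairpin 1 have no ratio and are left out of these medians.

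**Figure D2:**
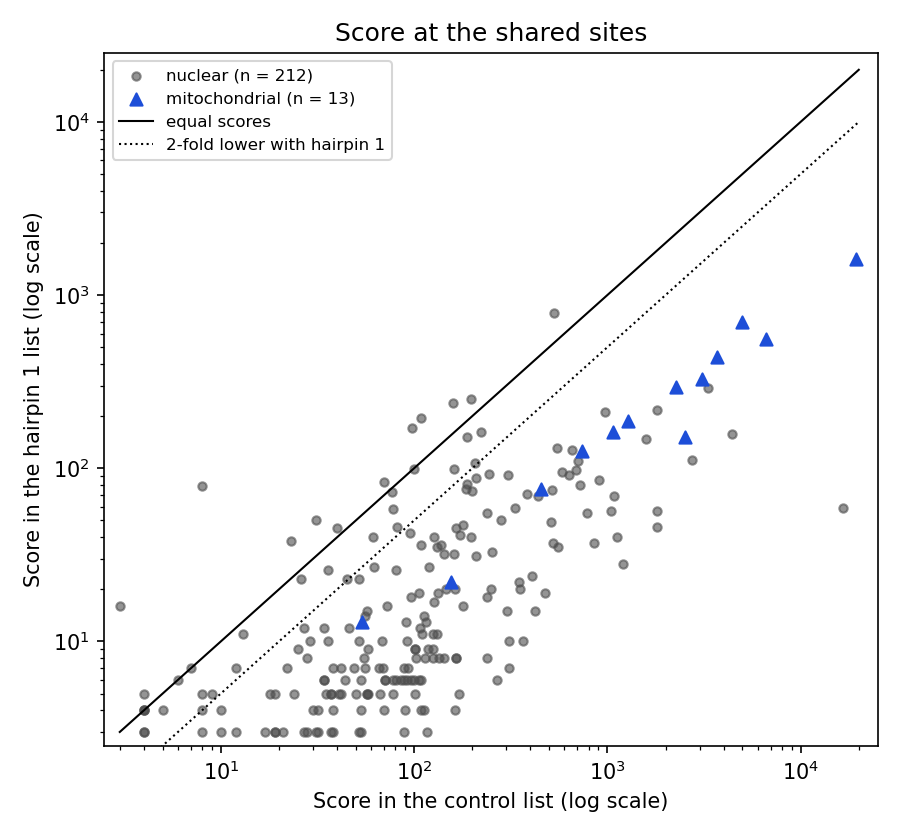
Score at each of the 225 shared sites in the control list (x axis) and the hairpin 1 list (y axis), both on log scales; the solid line marks equal scores and the dotted line a 2-fold lower score with hairpin 1. The 13 mitochondrial sites (triangles) form a narrow band 4.15-fold to 16.8-fold below equality, nuclear sites (circles) scatter on both sides of it, and 12 sites lie above equality.

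The 10 shared sites with the highest hairpin 1 score comprised 6 on the mitochondrial chromosome and 4 nuclear ones. The mitochondrial site at 2241 (plus strand) had a score of 19241 in control and 1608 with hairpin 1, or 12-fold lower. The one at 6445 (plus strand) had 6647 and 559, or 11.9-fold lower. The mitochondrial site at 11284 (plus strand) went from 4950 to 698, or 7.09-fold lower. The 6 ratios ran from 7.09-fold to 12-fold lower. Among the nuclear ones, chr2:21224714 (minus strand) was 11.5-fold lower, at 3331 in control and 289 with hairpin 1. The other 3 nuclear sites had higher scores with hairpin 1 than in control. They are chr12:56538455 (plus strand; 529 in control and 792 with hairpin 1), chr12:45826129 (plus strand; 198 and 250) and chr17:78109067 (minus strand; 159 and 239).

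Higher scores with hairpin 1 were seen at 12 shared sites, against 208 with lower and 5 with equal scores. The chr2:183324675 site (plus strand) had the largest ratio, with 8 in control and 79 with hairpin 1, or 9.88-fold higher. All 8 control reads carried the change, and at least 23 of the 79 with hairpin 1. The chr18:8037998 site (minus strand) followed with 3 and 16, all 3 and at least 12 of them changed. Neither has a control score above 8. The next had higher control scores than these and ratios under the 2-fold limit. They were chr20:31946655 (minus strand; 108 in control and 195 with hairpin 1), chr10:120927234 (minus strand; 98 and 171), chr20:18744541 (plus strand; 23 and 38) and chr3:53317466 (minus strand; 31 and 50). At chr20:31946655 and chr10:120927234 the change was on 1 read in control and 2 with hairpin 1. The pooled lists give no spread against which these differences could be set.

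The chr1:16826300 site (plus strand) had the largest loss, from a score of 16513 to 59, or 280-fold lower. Its C-to-T share is known only to lie between 3.43% and 100% in control and between 33.9% and 100% with hairpin 1. The next 9 sites lay between 31.7-fold and 44.5-fold lower, well beyond the mitochondrial range. Of these, 3 were deep in control. The chr7:45928494 site (plus strand) had 1209 in control and 28 with hairpin 1, chr4:88814787 (plus strand) 1813 and 46, and chr17:79919015 (minus strand) 1807 and 57. The C-to-T share was nearly the same in both lists at chr4:88814787 (2.10% and 2.17%) and chr17:79919015 (1.83% and 1.75%). With hairpin 1 each of these shares rests on 1 changed read (of 46 and of 57), the fewest that a listed site can have. The remaining 6 had control scores of 117 to 364 and hairpin 1 scores of 3 to 10, near the lowest score that a list holds. They are chr7:74789812, chr16:8875931, chr9:19049795 and chr20:61472001 on the plus strand and chr1:21923454 and chr16:87865095 on the minus strand.

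The share of changed reads differed at 1 of the 225 shared sites (0.444%), by two-sided Fisher's exact tests of changed and unchanged reads with Benjamini-Hochberg adjustment over all 225. Where only bounds were known, the test took the numbers within them that bring the 2 shares closest, and the 13 sites whose bounds fix no direction were given a p of 1. The called site was chr6:28829551 (plus strand). In control 46 to 49 of its 199 reads carried the change, or 23.1% to 24.6%, and with hairpin 1 it was 2 of 74, or 2.70% (adjusted p = 0.00498, Fisher's exact test). Its score was 2.69-fold lower, less than at any mitochondrial site. The site was not in the list of hairpin 2. It is also 1 of the 27 with bounds only. Among the 198 shared sites with a single possible number in both lists, 0 passed the adjusted threshold and 9 had an unadjusted p under 0.05. With the extreme numbers within the bounds in place of the closest, 7 or 5 of the 225 passed, by which list was given the most changed reads.

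At an unadjusted p under 0.05 there were 12 of the 225 sites, with a higher share with hairpin 1 at 9 and a lower one at 3. The 3 lower ones were deep with hairpin 1. Beside the chromosome 6 site they were chr15:40764816 (plus strand), with 40 of 709 reads changed in control and 1 of 110 with hairpin 1, and chr17:10584355 (minus strand), with 42 to 43 of 332 and 2 of 59. Most of the 9 higher ones were shallow, such as chr6:21594827 (plus strand), with 3 of 50 reads in control and 3 of 5 with hairpin 1. Those of the 9 with most hairpin 1 reads were chr14:23537580 (minus strand; 7 of 526 and 3 of 37 reads), chr1:235644261 (plus strand; 4 of 26 and 11 to 12 of 23) and chr19:45406546 (plus strand; 23 of 354 and 5 of 20). None of these 11 passed after adjustment (smallest adjusted p = 0.785, Fisher's exact test).

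How the share compared between the lists differed with the hairpin 1 score, which is also the number of reads behind the hairpin 1 share. A listed site needs at least 1 changed read, so a hairpin 1 site with 3 reads cannot show less than 33.3%. Among the 93 resolved shared sites with a hairpin 1 score of 3 to 9, control had a median of 9.86% and hairpin 1 of 25%, and the share was higher with hairpin 1 at 80 and lower at 11. At scores of 10 to 49 it was 3.53% and 6.19% (60 sites, 43 higher and 17 lower). At scores of 50 or more it was 2.04% and 1.83% (45 sites, 23 higher and 22 lower). A single changed read stood behind 65 of the 93, 42 of the 60 and 18 of the 45 sites with hairpin 1. The median of the differences within these deepest sites was 0.0101 percentage points (hairpin 1 minus control). With the reads of those 45 sites added up, 983 of 40134 control reads (2.45%) and 161 of 7175 hairpin 1 reads (2.24%) carried the change. For the 39 nuclear ones among them the sums gave 2.52% and 2.13%, and for the 6 mitochondrial ones 2.36% and 2.53%. The background rate that orders all sites of a list was 1.57% in control and 1.43% with hairpin 1. The summed shares of the 45 deep shared sites lie above this rate in both lists. They were 2.45% against 1.57% in control and 2.24% against 1.43% with hairpin 1, a difference that was not tested. Single sites among the 45 lay below the background rate, such as chr16:21994959 (plus strand), at 1% in control and 1.01% with hairpin 1. How far a lower background moves these shares was not tested.

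**Figure D3:**
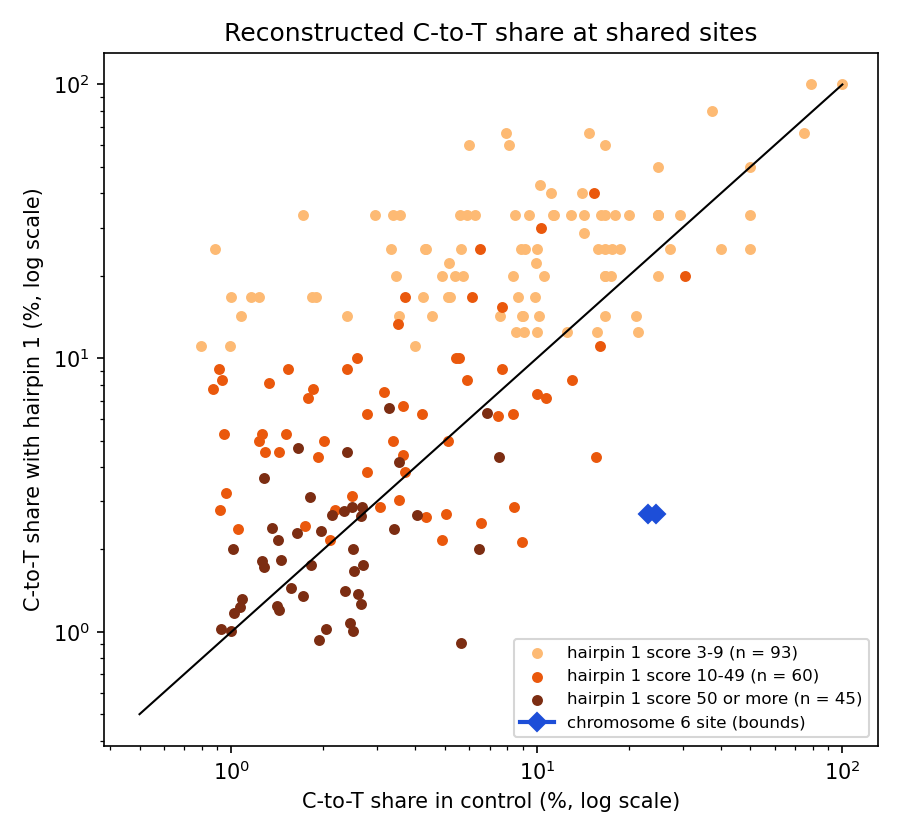
Reconstructed C-to-T share at the 198 shared sites with a single possible number of changed reads, in control (x axis, %) and with hairpin 1 (y axis, %), on log scales, coloured by hairpin 1 score; the line marks equal shares. Shallow sites (3 to 9) lie mostly above the line, the 45 sites with a score of 50 or more lie around it, and the chromosome 6 site (diamonds, joined over its bounds) lies far below it.

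The 257 sites listed with hairpin 1 and not in control had a median hairpin 1 score of 10 (lowest 3, highest 791), against 12 (3 to 1608) for the shared sites. The deepest was the mitochondrial site at 14194 (plus strand), with a score of 791 and 10 changed reads. The chr7:145694501 site (plus strand) came next, with a score of 740 and 10 changed reads, or 1.35%. It lay between shallow sites at 145694489 and 145694523, with scores of 6 and 4, and no control site was listed within 4333726 nt of them on that strand. The sites at chr19:10244025 (minus strand; 654) and chr8:26268505 (plus strand; 507) were also in the list of hairpin 2, at 1877 and 2586. The chr2:216274788 (minus strand; 299), chr5:177631554 (plus strand; 277), chr5:36976216 (plus strand; 190) and chr14:101201399 (plus strand; 178) sites were not. The remaining 2 of the 10 deepest were mitochondrial, at 8680 and 7733 (plus strand; 236 and 224), and both were in the list of hairpin 2, at 230 and 344. In all, 4 of the 10 were listed with hairpin 2 and 6 were not. Over all 257 sites, 36 (14.0%) were listed with hairpin 2, against 83 of the 225 shared sites (36.9%). In the 10 deepest the change was on 2 to 16 reads and the share between 1.12% and 2.54%. These shares lie on both sides of the background rate of the hairpin 1 list, 1.43%.

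Sites found with hairpin 1 alone were less often near other control sites than shared sites were. Another control site lay within 1000 nt on the same strand for 45 of the 257 (17.5%, interval 13.1 to 22.7) and for 78 of the 225 shared sites (34.7%, 28.5 to 41.3). The odds ratio was 0.400 (adjusted p = 4.96e-05 over 2 tests, Fisher's exact test). The 2 sets are split by the control list, from which the neighbours also come, and sites close together were counted singly. No conclusion is therefore drawn from this p. For control sites not listed with hairpin 1 the share was 17.4% (16.1 to 18.7; 613 of 3530), within the interval of the sites found with hairpin 1 alone. The hairpin 1 scores of the sets were alike at the median, but the control sites that recurred were far deeper in control, with a median score of 101 against 13 for the others, and the part of that depth was not tested. A near miss in position was rare: 1 of the 257 lay within 10 nt of a control site on its strand, and 8 within 50 nt. A single changed read stood behind 174 of the 257 (67.7%) and 127 of the 214 resolved shared sites (59.3%), which did not pass (adjusted p = 0.0673, odds ratio 1.44, Fisher's exact test).

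Control sites not listed with hairpin 1 numbered 3530. The 10 deepest had control scores of 691 to 6489 and C-to-T shares between 1.26% and 3.69%. These shares lie on both sides of the background rate of the control list, 1.57%. The chr18:12326396 site (plus strand) had 102 changed reads among 6489, and chr12:46754879 (minus strand) 54 among 3479. Of the others, chr15:64448069 (minus strand; 939 in control), chr11:75283559 (plus strand; 691) and the mitochondrial sites at 13775 and 2253 (1131 and 791) were listed with hairpin 2. The chr4:7032275 (plus strand; 1293), chr8:27455529 (minus strand; 814) and chr12:121352942 (plus strand; 715) sites and the mitochondrial site at 9605 (741) were listed in control alone. Over all 3530 sites, 161 (4.56%) were listed with hairpin 2. A share of at least 50% was seen at 692 of the 3503 resolved sites that were not recovered (19.8%, interval 18.4 to 21.1), and at 8 of the 201 resolved sites that were (3.98%, 1.73 to 7.69). Shallow sites reach such a share with few changed reads, and this was not matched for depth.

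Neighbouring sites often fall in 1 transcript, so the sites of both lists were joined into groups on 1 strand, with gaps of up to 1000 nt. Of 3364 groups with a control site, 3131 (93.1%, interval 92.2 to 93.9) held no hairpin 1 site. Recovery was higher in groups with more control sites. It was 5.52% of 3064 groups with a single control site (4.73 to 6.38), 16.9% of 243 groups with 2 (12.4 to 22.2), 27.8% of 36 groups with 3 (14.2 to 45.2) and 61.9% of 21 groups with 4 or more (38.4 to 81.9). More sites give more chances of recovery, and deeper coverage was not held fixed. Hairpin 1 added 207 groups with no control site.

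With gaps of up to 10000 nt, 32 nuclear groups had 4 or more control sites. Of these, 15 held a hairpin 1 site and 17 held none. The largest, chr2:21224714-21236106 (minus strand), had 15 control sites and 6 hairpin 1 sites, every one of the 6 at a control position. Its summed score was 10736 in control and 851 with hairpin 1, or 12.6-fold lower. The 6 recovered sites were the 6 deepest of the group in control apart from 21226173, which had a control score of 657 and was not listed with hairpin 1. They had control scores of 3331, 1084, 635, 1579, 852 and 1816 and hairpin 1 scores of 289, 69, 92, 148, 37 and 216. The ratio within the group ran from 6.90-fold lower at 21230360 to 23.0-fold lower at 21233389. The C-to-T shares were between 1.42% and 5.05% in control and between 1.35% and 4.17% with hairpin 1. The 9 others had control scores of 10 to 657.

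**Figure D4:**
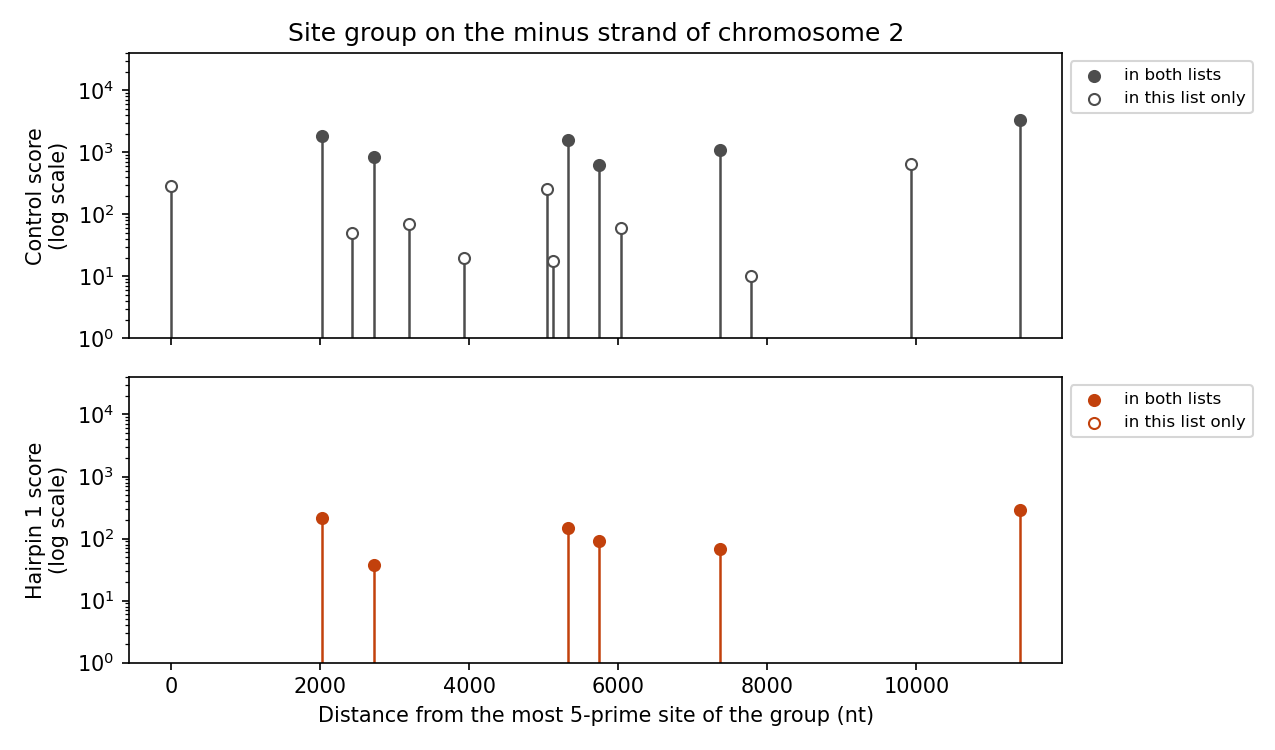
Scores (log scale) of the 15 control sites and 6 hairpin 1 sites of the chromosome 2 group on the minus strand, by distance from the most 5-prime site; filled points are in both lists and open points in 1. The 6 hairpin 1 sites all stand at positions of deep control sites, each at a lower score.

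The other dense nuclear groups differed in how many sites recurred and in how far the scores were lower. The chr7:94294669-94298635 group (plus strand) had 5 control sites and 3 hairpin 1 sites, with a summed score of 1958 and 168. Its sites at 94294669 and 94295179 were 6.35-fold and 6.13-fold lower, with C-to-T shares of 7.53% and 6.87% in control and 4.35% and 6.32% with hairpin 1. The third recovered site, 94295439, was 17.5-fold lower (70 and 4), with a share of 4.29% in control and 25% with hairpin 1, where 1 of the 4 reads was changed. The chr17:79910737-79919015 group (minus strand) had 5 and 2 sites and a summed score 40.5-fold lower (2470 and 61). The chr2:20647453-20647968 group (plus strand) had 5 and 2 sites and a sum 18-fold lower (1803 and 100). The chr14:38060488-38061342 group (minus strand) had 4 and 1, and its recovered site at 38060488 was 4.19-fold lower (549 and 131). Summed scores move with which sites a list holds, so these folds are not those of single sites. Groups with 5 control sites and none with hairpin 1 were chr12:53431275-53434443 (plus strand), chr19:18485655-18499318 (plus strand) and chr8:17764564-17771286 (minus strand). Their control scores summed to 280, 154 and 129. Such sums were also seen in groups that kept a site, such as chr16:89346717-89351669 (minus strand; 218 in control and 43 with hairpin 1), and the chr5:99382960-99390411 group (minus strand; 4 control sites) had a sum of 598 and no site with hairpin 1.

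The chr1:564545-570153 group (plus strand) was unlike these. It had 6 control sites and 6 hairpin 1 sites, but only 1 position, 570153, was in both lists, with a score of 408 in control and 24 with hairpin 1. The 5 other hairpin 1 sites, at 565165, 566234, 566502, 566969 and 568523, had scores of 39, 14, 14, 16 and 3. The summed score was 1136 in control and 110 with hairpin 1, or 10.3-fold lower, while the number of sites was equal. Some positions here are spaced like mitochondrial ones. The sites at 565684 (control, not hairpin 1) and 566234 lie as far apart as mitochondrial 5135 (hairpin 1, not control) and 5685 (control, not hairpin 1). Whether reads from one place were assigned to the other was not tested, so the low overlap is not read as a nuclear result.

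The mitochondrial chromosome also had lower scores together with positions present in 1 of the 2 lists alone. It had 25 control sites and 24 hairpin 1 sites, all on the plus strand, of which 13 were shared. The shared sites were deeper at the median, with a control score of 54 to 19241 (median 2269) and a hairpin 1 score of 13 to 1608 (median 187). The 12 control sites not recovered had scores of 23 to 1131 (median 226.5), so the ranges overlap: 13775, at 1131, was not recovered, and 16014, at 54, was. The 11 sites found with hairpin 1 alone had scores of 3 to 791 (median 113), which overlaps the range of the shared ones. The smallest ratio was at 16014 (54 in control and 13 with hairpin 1, 4.15-fold lower) and the largest at 2786 (2530 and 151, 16.8-fold lower). From these 11 sites the nearest control site was 12 nt (at 8680) to 997 nt (at 12554) away, so a shift of positions is not shown. The control site at 8692 (score 500) was not listed with hairpin 1, and 8680, which was absent from control, had a score of 236 there. Of the 8 shared mitochondrial sites with resolved numbers, the share was higher with hairpin 1 at 6 and lower at 2, and 0 passed the adjusted threshold (0 also at an unadjusted p under 0.05, Fisher's exact test).

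**Figure D5:**
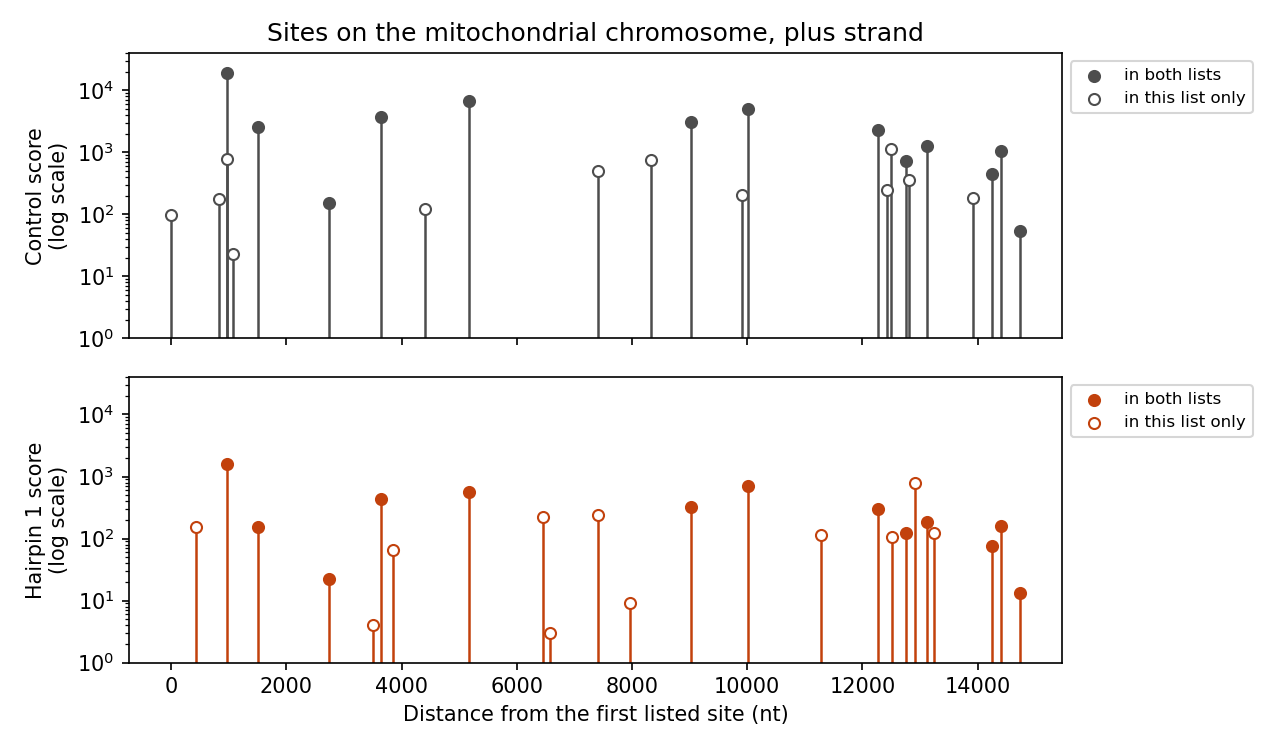
Scores (log scale) of the 25 control and 24 hairpin 1 sites of the mitochondrial chromosome by distance from the first listed site; filled points are in both lists and open points in 1. The 13 shared sites are lower with hairpin 1 at every position, and 11 hairpin 1 sites, up to a score of 791, stand where control has none.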

How the data were processed

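Per the labels, HepG2 mRNA was sonicated, pulled down with an m6A antibody and made into stranded libraries. Tools named in the submitters' processing notes are cutadapt 1.13, Bowtie 1.1.2 and FastQC 0.11.5, with build hg19. Site names carry the tool name rbsSeeker and the change CT. Its version, its filters and how replicates were pooled: not given in the sources used here. Each site's deposited score, set by the authors, was used unscaled.

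Changed reads were reconstructed as the whole numbers for which the binomial probability of that many or more changed reads never decreases along the running numbers. Background rates from 0.8% to 2% were scanned, and bounds cover every rate that ordered all sites. The calculation was tested on simulated data. C-to-T shares were compared by Fisher's exact test with Benjamini-Hochberg adjustment over all shared sites, with a threshold of 0.05. A score ratio was called at 2-fold. Read totals were not used, so sequencing depth is unknown beyond the scores. Each list was assigned to its shRNA by the labels.

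Named sites are the 10 deepest shared, hairpin 1 alone and control alone sites and the 10 largest and 10 smallest score ratios. Members, groups and rules were chosen with earlier results of these data known, and after the lists had been seen, tests of C-to-T shares, neighbours and site groups were added. The other sites and groups named were chosen with their values in view. Motif, region, gene list and cell type marker analyses were not run without an hg19 reference. Python 3.11.15, numpy 2.4.6, scipy 1.17.1, pandas 2.3.3 and matplotlib 3.10.9 were used.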

Additional observations from a re-analysis of the deposited data

How the results depend on the processing

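No paired analysis was possible because 1 pooled list stands for the 3 replicates of each shRNA, and leaving out a replicate was not possible for the same reason. Over 7 results and 30 alternatives, 24 stayed within the limits of the reported value or kept their call, and 0 reversed. A reversal could be recorded only for the median ratio and the odds ratio. With sites of a score of at least 10 in both lists, the median ratio at shared sites was -2.56 on the log2 scale against -2.81, and sites at least 2-fold lower numbered 103 of 125 against 189 of 225, with fewer sites tested. With gaps of up to 50000 nt, 90.9% of site groups with a control site had none with hairpin 1, against 93.1%. The number of shared sites with a different C-to-T share was 1. It was 0 with sites of a single possible number alone, which leaves out the chromosome 6 site. It was 7 with the fewest changed reads for hairpin 1 and most for control, and 5 with the opposite bounds. The chromosome 6 site passed at both ends with a lower share with hairpin 1, and 4 other sites passed at both ends in opposite directions. Shares of lists moved little with the matching distance (10 or 50 nt), merging or leaving out chromosome M. The odds ratio for neighbouring control sites ran from 0.363 to 0.462 over its alternatives, with the largest p at 0.00806 by Fisher's exact test. Each of them also split the sets by the control list that gave the neighbours. Planned tests of motifs, transcript regions and genes were not run, for want of an hg19 reference here.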
